A study of Homo sapiens with 4 samples.

Results

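The zinc finger gene clusters of human chromosome 19 were examined for SAF-A, the scaffold attachment factor encoded by HNRNPU. SAF-A is an RNA-binding protein of the nucleus that also contacts DNA. Members were all called SAF-A peaks with their summit in a block at 19p12, from 19900001 to 24500000, or in a block of the distal long arm, from 55000001 to 61457084, on the hs1 assembly. The last 250 kb of the chromosome were left out, counted from the end of the last peak. The blocks span 4.60 and 6.46 Mb and held 70 and 1060 peaks over 4 lists, together 1130 of the 371322 peaks on the nuclear chromosomes. The reference was the rest of chromosome 19 without 24.5 to 30 Mb, which is 44.9 Mb with 12498 peaks.

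Binding was profiled by CUT&Tag, in which transposase, tethered by an antibody, cuts out the DNA around a protein for sequencing. The cells were wild-type RPE1, an immortalised human line from retinal pigment epithelium. Asynchronous cells gave 2 libraries and cells synchronised in mitosis gave 2. Both states number theirs as replicates 3 and 4, and every library came with its own peak list. Values given in pairs stand for replicate 3 and then replicate 4. All groups share the line, the genotype, the antibody and an added E. coli spike-in of 1 pg per 100000 cells, and the labels used here name no agent for synchronisation.

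Most zinc finger genes of these clusters encode transcription factors of the KRAB type, which recruit the corepressor TRIM28 and through it enzymes that build heterochromatin, mainly at transposable elements. The genes arose by tandem duplication, lie side by side, and carry repressive histone methylation over the exons that encode their fingers. Chromosome 19 has 266 of the 567 protein-coding genes with zinc finger symbols (46.9%) in RefSeq's GRCh38.p14 table. The longest run of neighbours without another protein-coding gene between them has 27 members, from ZNF737 to ZNF681, and includes ZNF43, ZNF208 and ZNF91, a repressor of retrotransposons. That run is known to lie in 19p12. The distal long arm is known to hold PEG3 and ZNF331, which are imprinted, ZNF274, which binds the ends of other zinc finger genes, ZSCAN4, which is active in early embryos, and, between zinc finger clusters, the leukocyte receptor genes of the LILR and KIR families. Further runs of 24, 24 and 20 zinc finger genes lie elsewhere on the chromosome, so the reference is not free of them. That table is on another assembly than the peaks, so no peak was assigned to a gene and no sequence of a region was read.

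Depth, given as the lowest local background in a list, was 1.38 fragments in asynchronous replicate 3, 1.17 in asynchronous replicate 4, 1.17 in mitotic replicate 3 and 1.79 in mitotic replicate 4. The lists held 101124, 76460, 78900 and 114838 nuclear peaks in that order. Nothing in the labels ties the replicates to separate cultures. P-values therefore reflect the spread among these 4 libraries, and part or all of it may be technical. For values compared within each library the smallest exact two-sided p over 4 libraries is 0.125, and between the states it is 0.333, so neither can reach 0.05.

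The 19p12 block was nearly empty of SAF-A peaks. Asynchronous replicates 3 and 4 had 20 and 13 peaks in its 4.60 Mb, and mitotic replicates 3 and 4 had 20 and 17. This is a density of 3.80 ± 0.721 peaks per Mb (SD, n = 4), against 69.6 ± 12.5 in the reference. The log2 ratio of the densities was -4.20 ± 0.34 (SD, n = 4), or 0.0545 of the reference, and the block was lower in 4 of 4 libraries (exact paired permutation p = 0.125). Chromosome 4, the sparsest autosome, had 10.3 to 17.2 peaks per Mb. The 19p12 density was 0.286 of that of chromosome 4 and lower in 4 of 4 libraries (exact paired permutation p = 0.125). That sets a block against the average of a whole chromosome. In windows of 1000000 bp, 5.60% to 25.9% of 2892 autosomal windows held no more summits than a complete window of the block. With -log10 q raised to 5 or more, 21 peaks were left in the block, 5 and 4 in asynchronous cells against 4 and 8 in mitotic cells.

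The distal 19q block lay between these levels. It had 280 and 200 peaks in asynchronous cells against 254 and 326 in mitotic cells, or 41.0 ± 8.14 per Mb (SD, n = 4). Its log2 ratio to the reference was -0.77 ± 0.15 (SD, n = 4), a density of 0.588 of the reference, lower in 4 of 4 libraries (exact paired permutation p = 0.125). Against the other autosomes in place of the rest of chromosome 19 the direction turned, with a log2 ratio of 0.42, while that of the 19p12 block was -3.01. The 19p12 block was below the distal block in 4 of 4 libraries, with a log2 ratio of -3.43 ± 0.25 (SD, n = 4, exact paired permutation p = 0.125).

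**Figure D1:**
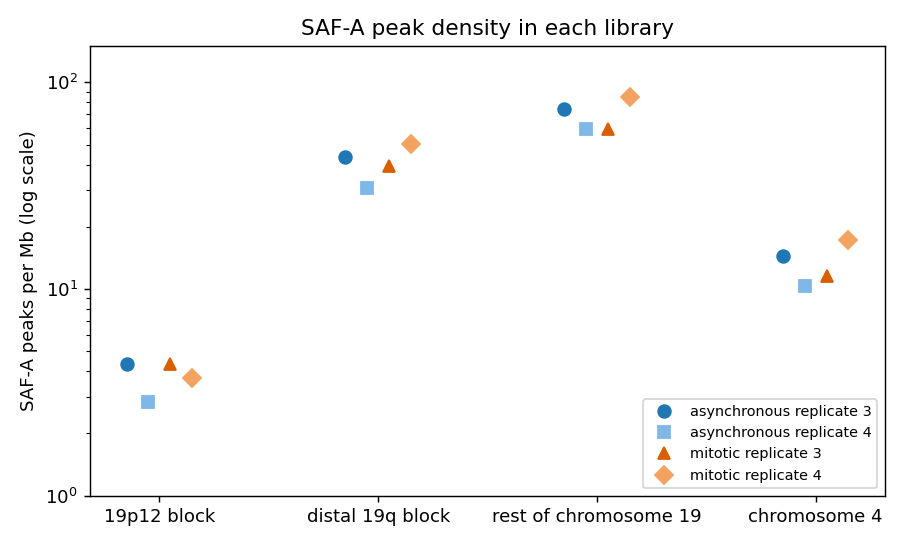
SAF-A peaks per Mb (log axis) in the 19p12 block, the distal 19q block, the rest of chromosome 19 and chromosome 4, the autosome with the lowest density over its whole length. Each point is 1 library. In the 19p12 block all 4 libraries lie between 2.83 and 4.35 peaks per Mb, below the chromosome 4 values of 10.3 to 17.2, and in the distal block they lie between 31.0 and 50.5.

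Peak density fell around the start of the 19p12 block. The 500 kb before it held 42 and 34 summits in asynchronous cells against 33 and 45 in mitotic cells. The first 500 kb inside held 1 and 4 against 1 and 2. At the other end the 500 kb after the block, which belong to the stretch around the centromere that was left out of the reference, held 2 and 0 summits in asynchronous cells against 2 and 3 in mitotic cells. The last 100 kb before the start already held 4 and 2 against 2 and 4 summits, and the first 100 kb inside held 1 and 3 against 1 and 1. Counts were thus low on both sides of the edge itself, and in asynchronous replicate 4 the first window inside was not lower than the one before.

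Inside 19p12, long stretches had no peak in any list. Of its 46 windows of 100 kb, 26 (56.5%) held no summit in the 4 lists together, against 6.01% of 449 reference windows. In single libraries 67.4% to 78.3% of the block's windows were empty and 10.2% to 11.6% of the reference's, a difference of 61.5 ± 4.81 percentage points (SD, n = 4; higher in 4 of 4 libraries, exact paired permutation p = 0.125). The longest stretch without a peak in any list ran from 22110607 to 23006636, which is 896 kb. It was followed by 20071581 to 20591385 (520 kb), 23059163 to 23497391 (438 kb) and 20820148 to 21220631 (400.5 kb). Stretches of over 100 kb made up 86.7% of the 19p12 block, 15.2% of the distal block and 10.1% of the reference, where the longest was 680 kb. Within a list the median distance between neighbouring summits was 100.1 to 148 kb in 19p12 and 7.32 to 10.02 kb in the reference. The placement of reads that match several near-identical gene copies was not given in the sources used here, and an empty stretch is one without a called peak.

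**Figure D2:**
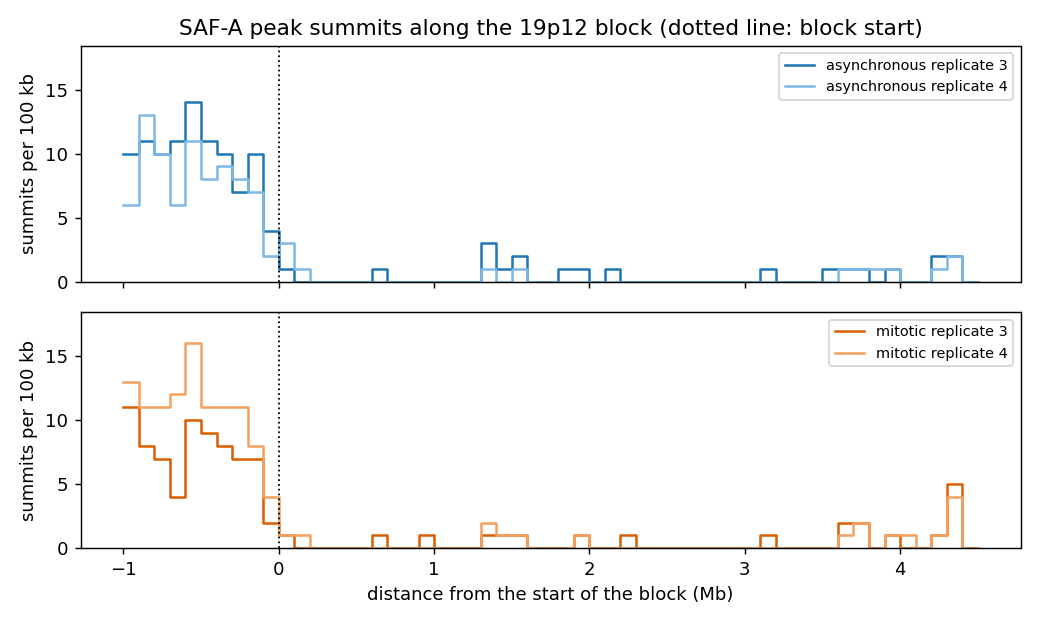
Summits per 100 kb (vertical axis) against the distance in Mb from the start of the 19p12 block (dotted line), for the 2 asynchronous libraries (top) and the 2 mitotic libraries (bottom). Counts fall over the 200 kb around the block's start and stay at 5 or fewer in all of its windows.

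Over the 4 lists together, the 5 fullest of the 46 windows of 19p12 held 52.9% of its summits. Windows picked as the fullest hold a large share of so few summits by that choice alone, and concentration was not tested. Part of the share is the same region called in several lists, such as 21280566 to 21281182, which was called in all 4. The window with the most summits, 24200001 to 24300000, had 2 and 2 in asynchronous cells against 5 and 4 in mitotic cells. The coverage of this window did not pass the test between the states (0.60 log2 units, SE 0.46, limma adjusted p = 0.906). Next came 21200001 to 21300000 with 3 and 1 against 1 and 2, and 19900001 to 20000000 with 1 and 3 against 1 and 1. The last of the 5 fullest windows were 23600001 to 23700000 with 1 and 1 against 2 and 2, and 21400001 to 21500000 with 2 and 1 against 1 and 1.

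Peaks of the 4 lists that shared at least 1 bp were merged, which gave 48 regions in 19p12. Single-library regions numbered 38, while 3 regions were found in 2 libraries, 2 in 3 and 5 in all 4. The strongest of the 5, from 19913820 to 19914613, lay close to the block's edge. Its summit pileup, the number of fragments over the highest position, was 30 and 23 in asynchronous cells against 28 and 48 in mitotic cells. It was at or above the 94.0 percentile of every list. The next region, 24180931 to 24181460, had 14 and 11 against 17 and 21 fragments. Lower still were 21280566 to 21281182, with 13 and 13 against 11 and 13 fragments, and 23826122 to 23826889, with 7 and 13 against 11 and 14. The weakest, 21467712 to 21468266, had 14 and 7 against 11 and 9 fragments. Apart from the first, these regions lay in the lower part of the genome's shared regions, at ranks 17047 to 19803 of 20334. The 38 regions with a peak in a single library had 6 to 20 fragments, with a median of 8.

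The median 19p12 peak stood on a local background at or near the lowest value of its list. The peak caller's local background at the median 19p12 peak was 1.00 and 1.00 times the library's lowest value in asynchronous cells against 1.07 and 1.00 times in mitotic cells. In the reference it was 2.54 and 2.72 against 2.43 and 2.43 times. The difference averaged -1.51 ± 0.157 times (SD, n = 4; lower in 4 of 4 libraries, exact paired permutation p = 0.125). Of the 19p12 peaks 16 of 20, 8 of 13, 9 of 20 and 10 of 17 had a background within 2% of that lowest value, in the order asynchronous replicates 3 and 4 and mitotic replicates 3 and 4. In the reference 3.96% to 5.62% of peaks did. Many 19p12 peaks thus share that lowest value, and coverage below it would not show in the lists. The median summit was 8 and 8 fragments in asynchronous cells and 9 and 13 in mitotic cells, where the reference had 15 and 14, and 14 and 18 (lower in 4 of 4 libraries, exact paired permutation p = 0.125). The authors' fold enrichment is the ratio of the summit to that background after a constant is added to both. Its median was 3.78 and 4.06 against 3.85 and 4.30 in 19p12, and 3.59 and 3.76 against 3.84 and 3.53 in the reference. So the median peak in 19p12 had fewer fragments at its summit than the median reference peak, and a lower background under it. The median percentile of the authors' q-value within a list was 35.3 and 38.4 against 41.1 and 59.1 in 19p12. In the reference it was 56.0 and 53.3 against 53.8 and 54.9, so mitotic replicate 4 went the other way. The mean difference was -11.0 ± 10.7 percentile points (SD, n = 4, lower in 3 of 4 libraries, exact paired permutation p = 0.25).

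The distal 19q block was not uniform along its length. Per Mb from 55000001 on, asynchronous replicate 3 had 19, 27, 76, 92, 15 and 30 summits in the 6 complete windows and mitotic replicate 4 had 18, 31, 91, 101, 22 and 43. Asynchronous replicate 4 had 9, 16, 59, 65, 11 and 20, and mitotic replicate 3 had 14, 27, 64, 79, 15 and 36. All 4 libraries had their highest counts from 57000001 to 59000000. Over the 4 lists the windows starting at 57000001 and 58000001 held 290 and 337 summits, and 86.8% and 92.5% of 2892 autosomal windows of that size held no more. The window starting at 55000001 held 60 and that starting at 59000001 held 63, which 43.8% and 45.0% of windows did not exceed. In 19p12 the 4 complete windows held 5, 19, 2 and 20 summits, and 9.92%, 25.3%, 5.60% and 25.9% of windows held no more.

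The sparse and dense stretches of the distal block recurred in every list. Summits per 100 kb over its 65 windows correlated between libraries with Pearson's r of 0.871 and 0.910 within a state and 0.858 to 0.942 between states, as a description of lists that share the same genome. The fullest window, 58400001 to 58500000, had 17 and 10 summits in asynchronous cells against 13 and 19 in mitotic cells. It was followed by 57200001 to 57300000 with 15 and 12 against 13 and 18, and 57300001 to 57400000 with 19 and 7 against 10 and 19. The windows starting at 58200001 and 58700001 held 45 summits each over the 4 lists. The longest stretch without a peak in any list was 529 kb, from 59476212 to 60005406, and the next longest was 125 kb, from 55406011 to 55531396. Windows without a summit were more frequent than in the reference in 4 of 4 libraries, by 12.3 ± 4.92 percentage points (SD, n = 4, exact paired permutation p = 0.125).

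**Figure D3:**
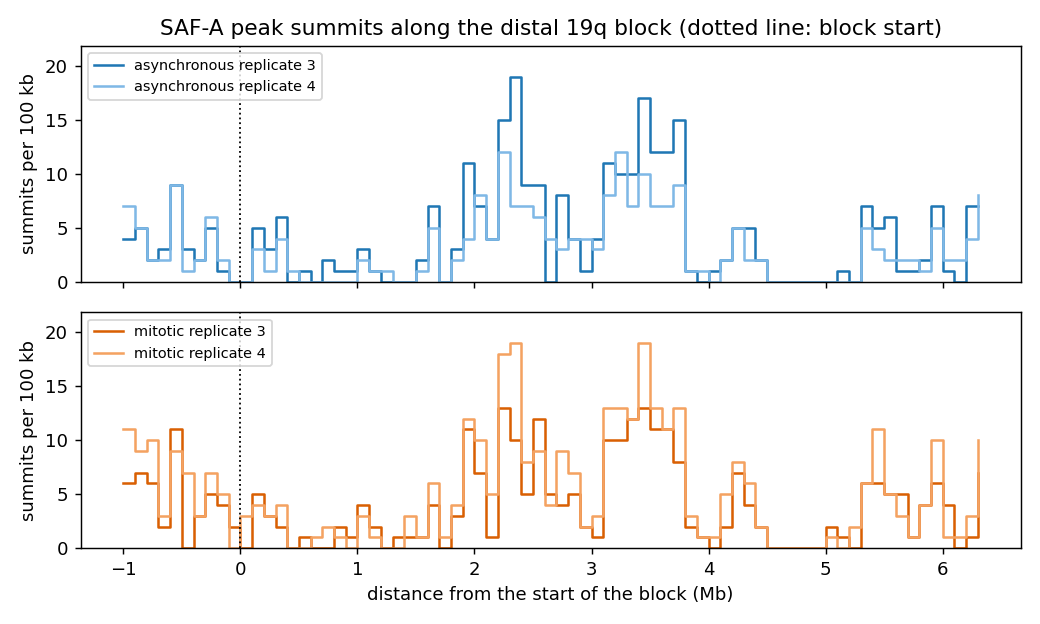
Summits per 100 kb (vertical axis) against the distance in Mb from the start of the distal 19q block (dotted line), for the 2 asynchronous libraries (top) and the 2 mitotic libraries (bottom). The highest windows reach 19 summits, and the stretch of 529 kb without a peak is empty in all 4 libraries.

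Distal regions were ranked only among those called in all 4 lists, so the regions named here occur in both states by that rule. The highest by mean rank, 57217116 to 57218042, reached 146 and 114 fragments in asynchronous cells against 97 and 222 in mitotic cells. This was 5.84, 5.43, 4.85 and 6.73 times the library's median over all regions called in all 4 lists, and it ranked 179 of 20334. The second, 57269683 to 57271658, was 1976 bp wide and had 139 and 97 against 94 and 190 fragments. The third, 55276750 to 55277754, had 127 and 98 against 80 and 116 fragments and lay in the otherwise sparse first Mb of the block. The fourth, 58434246 to 58435440, had 129 and 71 against 78 and 131. These 4 were at or above the 98.6 percentile of every list.

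Of the 10 strongest distal regions called in all 4 lists, 3 lay in the window from 57200001 to 57300000. The third of them was 57239731 to 57240383 with 77 and 57 against 56 and 75 fragments. The fifth, 56947118 to 56947672, had 88 and 91 fragments in asynchronous cells against 56 and 85 in mitotic cells. The sixth, 57058733 to 57060143, had 86 and 50 against 52 and 88 fragments. Next were 61374729 to 61375597 with 54 and 48 against 39 and 65, 56969430 to 56969895 with 47 and 48 against 36 and 65, and 59239332 to 59240125 with 51 and 39 against 35 and 72. All 10 had their highest count in asynchronous replicate 3, asynchronous replicate 4 or mitotic replicate 4, never in mitotic replicate 3, which is among the shallower libraries.

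In distal 19q the median peak stood at about the same rank as the median reference peak. The median percentile of the authors' q-value within a list was 54.9 and 51.4 in asynchronous cells against 56.1 and 54.9 in mitotic cells, and 56.0 and 53.3 against 53.8 and 54.9 in the reference. The mean difference was -0.177 ± 1.80 percentile points (SD, n = 4, exact paired permutation p = 1), and it was -1.14 with -log10 q of 5 or more (lower in 4 of 4 libraries, exact paired permutation p = 0.125). Summits were lower by 1.62 ± 0.479 fragments (SD, n = 4) on a local background lower by 0.597 ± 0.0362 times the list's lowest value. Fold enrichment was higher by 0.176 ± 0.0137. Each of these differences held in 4 of 4 libraries (exact paired permutation p = 0.125 each). Median widths were 298 and 294 bp against 334 and 342 bp, and differed from the reference by -1.12 ± 10.5 bp (SD, n = 4, exact paired permutation p = 0.75).

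Wide peaks were more frequent in the distal block. Of its peaks 9 of 280 and 6 of 200 in asynchronous cells against 8 of 254 and 12 of 326 in mitotic cells were over 1000 bp, which is 3.26% ± 0.294 (SD, n = 4). In the reference the share was 1.65% ± 0.625, and the distal block was higher by 1.61 ± 0.340 percentage points in 4 of 4 libraries (exact paired permutation p = 0.125). The 19p12 block had 0 peaks of that width among 70, too few peaks to tell its share from the 1.65% of the reference. The width limit of 1000 bp was chosen with the values in view.

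Whether block peaks recurred between lists more or less often than reference peaks depended on the threshold. Of distal peaks 30.0% and 41.5% in asynchronous cells against 31.5% and 25.2% in mitotic cells lay in regions called in all 4 lists (95% Wilson intervals 24.9% to 35.6%, 34.9% to 48.4%, 26.1% to 37.4% and 20.8% to 30.1%, which cover counting error only). The reference had 26.5% and 33.4% against 33.4% and 23.1%. The difference was 2.95 ± 4.16 percentage points (SD, n = 4; higher in 3 of 4 libraries, exact paired permutation p = 0.25), and it turned to -2.52 with -log10 q of 5 or more. For 19p12 the difference was 0.381 ± 6.77 points (SD, n = 4, exact paired permutation p = 1), from 13 to 20 peaks a library. It turned to -31.9 points with -log10 q of 5 or more, where 4 to 8 peaks a library were left, and to -9.97 with lists cut to equal length (lower in 4 of 4 libraries, exact paired permutation p = 0.125 each). Among merged regions, 80 of 638 distal (12.5%) and 5 of 48 19p12 regions (10.4%) were called in all 4 lists, against 11.5% of 7437 reference regions and 8.38% of all nuclear regions.

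**Figure D4:**
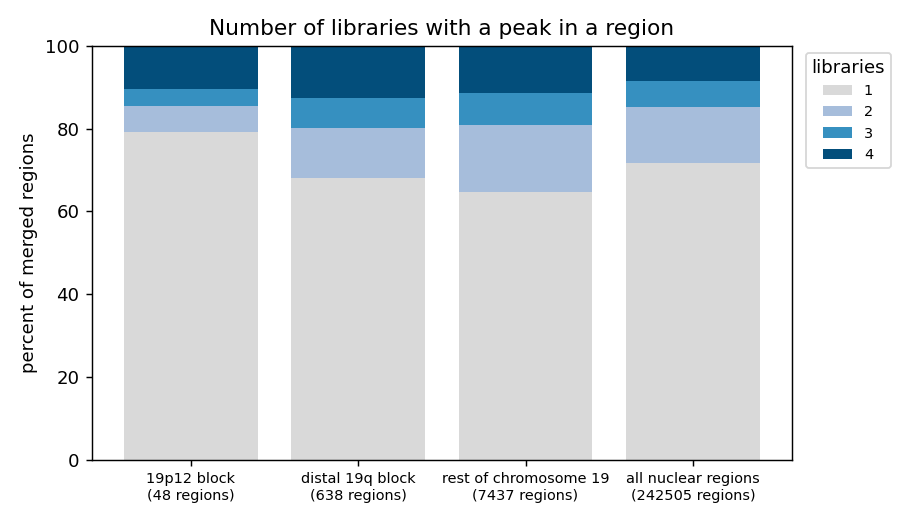
Percent of merged regions (vertical axis) with a peak in 1, 2, 3 or 4 libraries, for each part of chromosome 19 and for all nuclear regions, with the number of regions under each bar. Regions called in a single library make up 79.2% of the 19p12 block, 68.0% of the distal block and 64.8% of the rest of chromosome 19.

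The mitotic lists placed a slightly larger share of their peaks in the zinc finger blocks than the asynchronous lists. The share of nuclear peaks was 0.297% and 0.279% in asynchronous cells against 0.347% and 0.299% in mitotic cells, with means of 0.288% ± 0.0128 and 0.323% ± 0.0344 (SD, n = 2). The groups did not overlap, but the gap between the nearest libraries was small. The exact permutation p of 0.333 is the smallest that this design allows. With lists cut to equal length the difference was 0.0327 points, and with -log10 q of 5 or more it was 0.0410 (exact permutation p = 0.667 each). In both of these settings the states were no longer fully separated. Without mitotic replicate 3 the difference shrank from 0.0354 to 0.0111 percentage points, and without mitotic replicate 4 it grew to 0.0597. The distal block gave 0.277% and 0.262% against 0.322% and 0.284% (exact permutation p = 0.333), and the 19p12 block gave 0.0198% and 0.0170% against 0.0253% and 0.0148%, with overlapping groups (exact permutation p = 1). The reference share was 3.29% and 3.51% against 3.37% and 3.34% (exact permutation p = 1). The log2 ratio of cluster to reference density averaged -1.54 ± 0.13 for the asynchronous and -1.36 ± 0.14 for the mitotic state (SD, n = 2, overlapping groups, exact permutation p = 0.667). Shares and ratios take out any change common to the whole list.

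No window of the blocks passed the test between mitotic and asynchronous cells. Of 111 windows of 100 kb in the blocks, 66 had a peak in at least 2 libraries and were tested, 13 of 46 in 19p12 and 53 of 65 in distal 19q. By limma with Benjamini-Hochberg adjustment over all 19520 windows of the genome, 0 of the 66 passed, beside a background of 0% (0 of 19520). An unadjusted limma p under 0.05 was found in 3 of the 66, beside 983 of all 19520. The median difference was 0.14 log2 units over the 66 windows, higher in mitotic cells in 45 of them, and 0.02 over all windows. It was 0.016 without asynchronous replicate 4 (32 of 64 higher), 0.022 without mitotic replicate 3 (33 of 59) and 0.30 without mitotic replicate 4 (44 of 60). The lowest p belonged to 60400001 to 60500000, with 5 and 3 summits in asynchronous cells against 6 and 11 in mitotic cells (1.00 log2 units, SE 0.31, limma adjusted p = 0.886). It was followed by 56400001 to 56500000, with 0 and 0 against 1 and 3, and 56900001 to 57000000, with 11 and 4 against 11 and 12. In the other direction were 58000001 to 58100000, with 4 and 3 against 1 and 3 summits, 55300001 to 55400000, with 6 and 4 against 2 and 4, and 61200001 to 61300000, with 7 and 4 against 1 and 3. These 6 windows are named for their rank alone, since none passed.

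Summit heights of shared regions gave no call either. Of the 20334 regions called in all 4 lists, 85 lay in the blocks, and 0 of these passed limma with Benjamini-Hochberg adjustment over all shared regions, beside a background of 0.059% (12 of 20334). An unadjusted p under 0.05 was found in 7 of the 85, beside 1810 of all 20334. Divided by each library's median over shared regions, summits in the blocks differed by a median of 0.04 log2 units, against -0.02 over all shared regions. The median in the blocks was 0.07 without asynchronous replicate 4 and 0.011 without mitotic replicate 3, and it turned to -0.025 without mitotic replicate 4. Mitotic libraries were both above the asynchronous ones in 15 of 85 (17.6%), where the background was 17.2%, and both below in 12 of 85 (14.1%), where it was 20.4%.

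The lowest p among the 85 was that of 56947118 to 56947672, the fifth strongest distal region, at 3.52 and 4.33 times the library median in asynchronous cells against 2.80 and 2.58 times in mitotic cells (-0.54 log2 units, SE 0.18, limma adjusted p = 0.264). Both mitotic libraries were below both asynchronous ones. In the same direction were 58587950 to 58588758, with 24 and 27 against 17 and 18 fragments, and 60416775 to 60417460, with 35 and 36 against 24 and 29. In the other were 57280751 to 57281526, with 19 and 26 against 33 and 45, 56024847 to 56025295, with 8 and 7 against 13 and 17, and 58352780 to 58353548, with 36 and 27 against 37 and 67. Limma adjusted p-values of these other regions were 0.418 to 0.480. The 5 shared regions of 19p12 had adjusted p-values of 0.753 or more by limma.

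**Figure D5:**
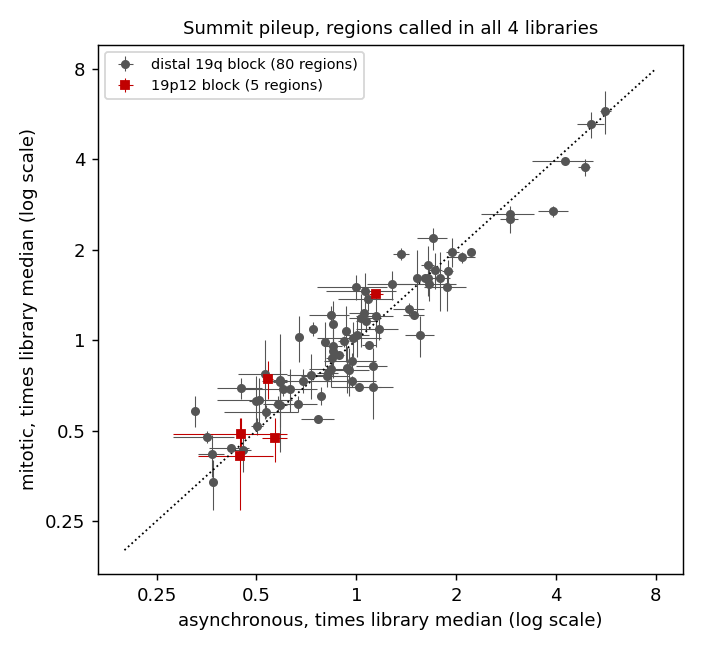
Summit pileup as a multiple of the library's median over all shared regions, asynchronous (horizontal axis) against mitotic (vertical axis), both log scaled, for the 85 regions of the blocks called in all 4 libraries. Points are means of 2 libraries, bars span the 2 libraries, and the dotted line marks equal values. Regions lie along the line, and 4 of the 5 regions of 19p12 lie below 1 on both axes.

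Regions found in both libraries of a state and in neither of the other were few. The blocks held 7 asynchronous-only regions, all in distal 19q, which is 1.02% of 686 regions (95% Wilson interval 0.495% to 2.09%, counting error only). They held 21 mitotic-only regions, 2 of them in 19p12, which is 3.06% (2.01% to 4.63%). In the reference these shares were 2.30% (1.98% to 2.66%) and 3.35% (2.96% to 3.78%), and over all nuclear regions they were 1.66% and 2.80%. With peaks of -log10 q of 5 or more, the blocks had 11 state-only regions in place of 28. State-only regions were ranked by the lower of their 2 percentiles of -log10 q within a list, not by fragments. The first mitotic-only region by that rank, 57248728 to 57248999, had 28 and 38 fragments and lay in the densely occupied window that starts at 57200001. It was followed by 55227092 to 55227398 with 12 and 19 fragments, 56474467 to 56474919 with 11 and 16, 56932628 to 56932956 with 12 and 19, and 59190727 to 59191281 with 14 and 21. The asynchronous-only regions reached at most 16 fragments. Fragments are not scaled for depth here, and mitotic replicate 4 was the deepest library with the longest list. The first by rank was 58076994 to 58077341 with 8 and 8 fragments, followed by 59209529 to 59209769 with 16 and 12 and 58409028 to 58409378 with 10 and 10. The last of the 5 named were 60954597 to 60954859 with 8 and 8, and 61382887 to 61383484 with 9 and 10. The difference between the states was not tested.

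Overlap between pairs of lists was similar within and between states. In distal 19q the Jaccard index (bases covered by both lists over bases covered by either) was 25.4% and 27.8% within states and 26.3% to 27.8% between states. In 19p12 it was 16.9% and 23.8% within and 15.4% to 21.0% between states, and in the reference 24.4% and 25.1% within and 23.4% to 26.5% between states. The difference was not tested, as the pairs share libraries.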

How the data were processed

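The submitters' processing notes name MACS2, Bowtie2, fastp, bedtools and build hs1. Not given in the sources used here: versions, parameters, control libraries, treatment of duplicates, use of the spike-in. The authors deposited 1 peak list per library. Its fold is a ratio, computed by the authors, of the summit to its local background, and its -log10 p and -log10 q are the peak caller's (smallest -log10 q 1.00). The deposited score was not used. Fold and q rank peaks within a list only.

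Summit pileup and local background were solved from fold and p for each peak, and 100.0% of pileups came out whole within 0.05. Starts in the lists count from 0, positions here from 1. Windows of 100000 bp were fitted with limma 3.58.1 (R 4.3.3, trended prior) on log2(covered bp per Mb of the list's covered length + 10), where a window had a peak in at least 2 libraries. Shared regions were fitted on log2 scaled summits. P-values were adjusted over all windows or regions of the 24 nuclear chromosomes, with a threshold of 0.05. Other values were compared by exact permutation over libraries.

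The blocks, lists and tests were chosen with earlier results of these data known. The comparisons of wide peaks, fold, local background and empty windows were added after seeing the data. Named by rule were the 10 strongest shared regions and 5 fullest windows of each block, the longest empty stretches, 5 state-only regions per state, and the 3 lowest p-values per direction. Gene positions, base composition and motifs were not analysed here, for want of a genome of build hs1. Alternatives were a stricter q, equal list lengths (76460 peaks), other references, overlaps, windows and pseudocounts, a prior without trend, the replicate block and each library left out.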

Additional observations from a re-analysis of the deposited data

How the results depend on the processing

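The lower density of the 19p12 block and its direction against the distal block held under every alternative run, with log2 ratios to the reference of -4.37 to -3.01. The distal block turned to 0.42 with the other autosomes as reference and stayed below the rest of chromosome 19 in the other settings. Percentile strength of both blocks together turned from -1.06 to 0.407 with equal list lengths, and distal strength to 0.879 there and to between -0.995 and 0.373 with a library left out. With -log10 q of at least 5 these were -1.28 and -1.14 (exact paired permutation p = 0.125 each). Recurrence turned with -log10 q of at least 5, to -4.14 points for both blocks, -2.52 for distal 19q and -31.9 for 19p12 (exact paired permutation p = 0.125 for the last). In 19p12 it was also -9.97 with equal lists (exact paired permutation p = 0.125), -2.73 with a reciprocal overlap of 50%, and -7.46 to 9.70 with a library left out. The width difference of both blocks together turned from -0.125 to 9 bp at the stricter q. With a library left out it lay between -3.17 and 4.33 bp. The 19p12 share difference between states lay between -0.00359 and 0.00696 points with a library left out. The share difference for both blocks lay between 0.0111 and 0.0597 points, and the difference in log2 density ratio between 0.0812 and 0.283. State-only regions fell from 28 to 11 at the stricter q. The cause of these changes was not tested. Windows and shared regions of the blocks had 0 calls in all settings run.

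The replicate numbers share no stated origin. Same-numbered libraries deviated together with r of 0.000189 over windows and -0.0493 over shared regions. With the replicate block the share difference was 0.0354 points (exact paired p = 0.5). That p is the smallest that pairing by replicate number allows, so it cannot reach 0.05. With this block, windows and shared regions of the zinc finger blocks had 0 calls.

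Planned settings for gene positions and base composition were not run, for want of a genome of build hs1. Precision in 19p12 is limited by its 13 to 20 peaks a library.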
